A study of Mus musculus with 9 samples.

Results

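The genes described are those that make the inhibitory transmitter GABA, load it into vesicles, break it down and form its slow receptor, the GABA-B receptor. The members were the 7 rows of the deposited table with the symbols Gad1, Gad2, Slc32a1, Abat, Aldh5a1, Gabbr1 and Gabbr2, of 57180 genes in all, and each was measured in all 9 libraries. All libraries came from the hippocampus of C57BL6 mice aged 11 days and were read by RNA-seq. The cKO group held 4 animals with a conditional knockout of Slc38a3, the gene of the glutamine transporter SNAT3, in endothelial cells (3 males and 1 female). The WT group held 5 wild-type animals (1 male and 4 females). The sources used here do not name the Cre driver or say whether WT animals carried a floxed allele or Cre. Sex was split unevenly between the genotypes and entered the models as a term.

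GABA is made from glutamate by glutamate decarboxylase, which exists as GAD67 (Gad1) and GAD65 (Gad2), and in the hippocampus both mark inhibitory interneurons. The vesicular transporter encoded by Slc32a1 packs GABA for release. After uptake, GABA transaminase (Abat) turns GABA into succinic semialdehyde, which the dehydrogenase encoded by Aldh5a1 oxidises to succinate for the citric acid cycle. The GABA-B receptor is an obligate pair, in which the Gabbr1 product binds GABA and the Gabbr2 product couples to G proteins, and it is made by excitatory neurons and glia as well as interneurons. Glutamine is a precursor of transmitter glutamate and GABA, which is the link between these genes and a glutamine transporter.

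The values are normalized counts, that is, reads per gene divided by a size factor per library. Depth was even: the recovered reads assigned to genes ran from 32096409 to 34034530 among cKO libraries and from 30803135 to 33134405 among WT libraries. The targeted gene went with the labels: Slc38a3 held 308 to 405 normalized counts in the 4 cKO libraries, against 1804 to 3514 in the 5 WT libraries (7.97-fold lower in cKO, limma adjusted p = 5.54e-05). Excitatory neuron markers of the hippocampus, such as Prox1 and Neurod6, and 24 interneuron markers were all above the filter on low values, and none of the marker genes was at 0 in all libraries.

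None of the 7 genes changed between cKO and WT hippocampus at the level the test could call, and each estimate was small. All 7 passed the filter, a mean over the libraries of 10 or more, and were among the 17036 genes tested with limma-trend, with sex as a term. With a Benjamini-Hochberg adjusted p under 0.05 as the threshold, 0 of the 7 passed, where 59 of all genes did (0.346%), 21 of them higher in cKO (0.123%) and 38 lower (0.223%). At an unadjusted p under 0.05 there were 3 (Gad1, Gabbr1 and Gabbr2), beside 11.3% of all genes. That share was 16.1% over the 3199 genes of like abundance (a WT mean within the range of the 7). It was 21.0% over the 553 genes with a WT mean of at least 10000. On the recovered reads, edgeR and DESeq2 also called 0 of the 7 (0.335% and 1.17% of all genes), and so did limma without the sex term (1.27% of all genes). The 95% intervals of the fold change of the 7 genes lay between 0.868 and 1.16, cKO over WT. The median log2 fold change of the 7 was -0.05, beside -0.0034 over all genes tested and -0.03 over the 3199 genes of like abundance. In bulk tissue, fewer cells of a type and less RNA per cell cannot be told apart.

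**Figure D1:**
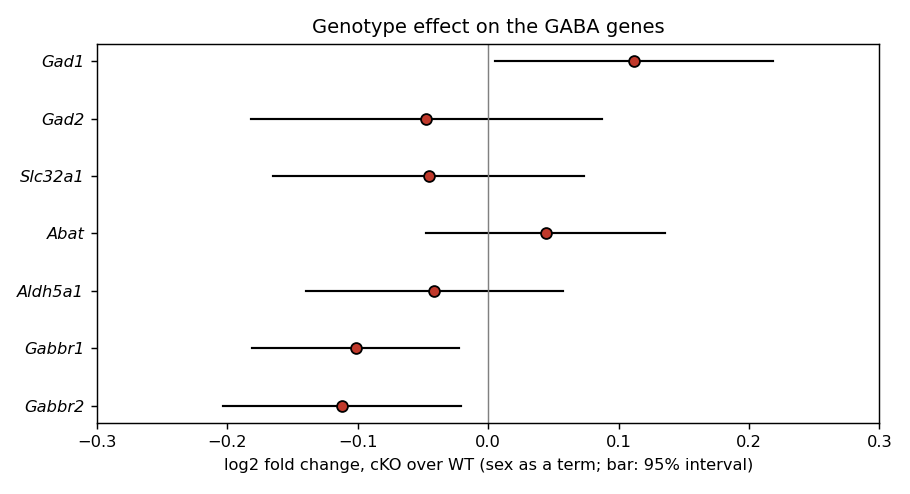
Log2 fold change of each GABA gene, cKO over WT (x axis), with the 95% interval of the limma fit as a bar, n = 4 cKO and 5 WT libraries. Gad1 lies highest at 0.11, Gabbr1 and Gabbr2 lowest at -0.10 and -0.11, and the 7 intervals together run from -0.20 to 0.22.

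The synthesis genes were examined first, and Gad1 had the highest estimate of the 7. Gad1 (ENSMUSG00000070880, chromosome 2, 70383415 to 70432358 in GRCm39) held 7874, 7559, 8055 and 8204 normalized counts in cKO replicates 1 to 4, against 7209, 7044, 7874, 7057 and 6907 in WT replicates 1 to 5. Of the cKO libraries, 3 lay above every WT library, by a margin of under 1 count in cKO replicate 1, and the groups overlapped through cKO replicate 2 and WT replicate 3. The mean ± SD was 7923 ± 278 over the 4 cKO libraries and 7218 ± 382 over the 5 WT libraries, a log2 fold change of 0.11 ± 0.0494 (SE), with a limma adjusted p of 0.418. The estimate was 0.06 with the mean of the meningeal markers as a covariate, 0.07 without WT replicate 1 and 0.16 without cKO replicate 2 (the limma adjusted p was 0.135 or more under every alternative run). Gad1os, a long non-coding gene that overlaps Gad1, held at most 17.6 normalized counts in any library, and the strand setting of the counting is unknown here.

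Gad2, the gene of the enzyme form found mostly at nerve terminals, showed no such direction. Gad2 (ENSMUSG00000026787, chromosome 2, 22512216 to 22583886) held 6262, 5754, 6847 and 6912 normalized counts in cKO replicates 1 to 4, against 6204, 6205, 6648, 6877 and 6534 in WT replicates 1 to 5. The cKO libraries held both the lowest and the highest value of the 9, and the female, cKO replicate 2, was the lowest. The means were 6444 ± 545 in cKO and 6493 ± 292 in WT, with a log2 fold change of -0.05 ± 0.0625 (SE, limma adjusted p = 0.808). Without cKO replicate 2 the estimate was 0.10, and without WT replicate 1 it was -0.19, so the sign for Gad2 turns with a single animal.

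The balance of the 2 decarboxylase genes was followed as a ratio within each library. Gad1 over Gad2 was 1.26, 1.31, 1.18 and 1.19 in cKO replicates 1 to 4, against 1.16, 1.14, 1.18, 1.03 and 1.06 in WT replicates 1 to 5. The ratio averaged 1.23 ± 0.0643 (SD) over the cKO libraries and 1.11 ± 0.0683 over the WT libraries. The ranges overlapped at one point, with cKO replicate 3 at 1.176 and WT replicate 3 at 1.184. The ratio was formed after the values were seen and is given as a description without a test.

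The paired genes were then set side by side for the sequence around their starts, since the members of each pair make partner products. The stretches run from 250 bases before to 50 after each gene's start (RefSeq, GRCm38.p6, an older build than that of the gene coordinates; a promoter was found for 6 of the 7 genes, Abat being the exception). Those of Gad1 (chr2:70561879-70562178, plus strand) and Gad2 (chr2:22622077-22622376, plus strand) are these, 5′ to 3′, with capitals marking any match to the 6 motifs searched, minus-strand matches appearing as the reverse complement:
Gad1: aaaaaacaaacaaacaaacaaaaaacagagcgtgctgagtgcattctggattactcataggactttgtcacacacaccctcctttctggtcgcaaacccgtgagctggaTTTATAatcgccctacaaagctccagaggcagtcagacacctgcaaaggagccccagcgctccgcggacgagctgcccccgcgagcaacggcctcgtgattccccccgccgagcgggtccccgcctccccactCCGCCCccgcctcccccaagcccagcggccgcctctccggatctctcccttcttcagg
Gad2: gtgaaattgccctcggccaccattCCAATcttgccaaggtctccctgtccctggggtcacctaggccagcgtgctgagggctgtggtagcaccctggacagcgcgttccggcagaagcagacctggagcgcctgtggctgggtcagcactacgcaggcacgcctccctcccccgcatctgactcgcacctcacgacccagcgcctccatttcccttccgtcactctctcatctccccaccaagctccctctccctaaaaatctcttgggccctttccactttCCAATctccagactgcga
The motifs, each sought on both strands, were TATAAA (in 13.6% of 32851 promoters of this length), the GC box GGGCGG (35.7%), the CCAAT box, letters CCAAT (37.4%), the homeodomain core TAATTA (5.29%), the cyclic AMP element TGACGTCA (1.79%) and the amino acid response element TGATGCAA (0.895%). The Gad1 stretch held a TATAAA and a GC box match, and the Gad2 stretch held CCAAT matches. Gad1 had 21 CpG dinucleotides and Gad2 had 14, where the median promoter has 7. A missing match says only that these letters are not in the window.

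**Figure D2:**
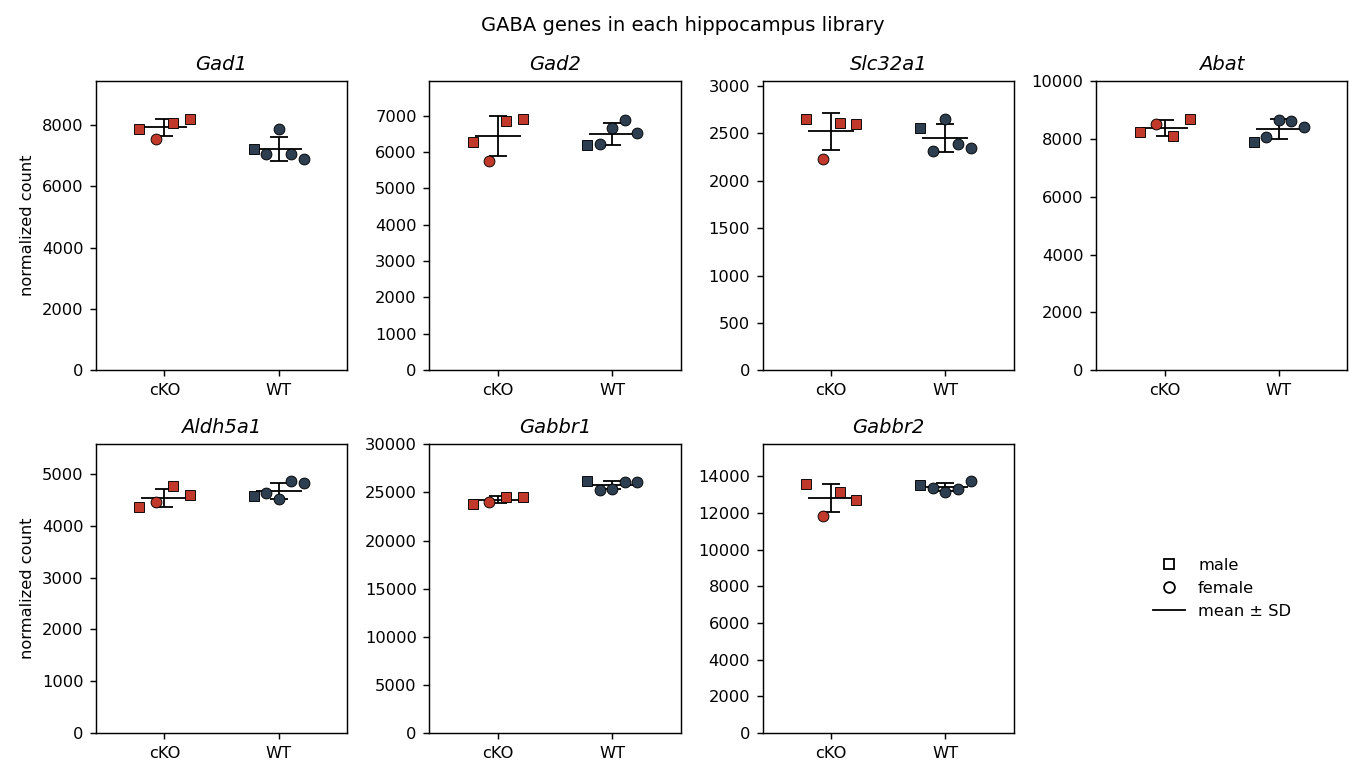
Normalized counts (y axis, from 0) of each GABA gene in the 4 cKO and 5 WT libraries, with squares for males, circles for females and the group mean ± SD as lines. The groups overlap in every gene except Gabbr1, in which all 4 cKO libraries, at 23841 to 24539, lie below all 5 WT libraries.

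Slc32a1, the vesicular GABA transporter gene, overlapped between the genotypes, with a single low cKO library. Slc32a1 (ENSMUSG00000037771, chromosome 2, 158452686 to 158457668) held 2649, 2228, 2606 and 2604 normalized counts in cKO replicates 1 to 4, against 2556, 2314, 2655, 2393 and 2348 in WT replicates 1 to 5. The 3 cKO males and the WT male were at 2556 or more, while the cKO female was the lowest of the 9 and WT replicate 3, a female, the highest. The group mean ± SD was 2522 ± 197 for the cKO libraries and 2453 ± 146 for the WT libraries. With sex as a term the model gave a log2 fold change of -0.05 ± 0.0555 (SE, limma adjusted p = 0.793), opposite in sign to the difference of the means, and it was 0.04 without the sex term.

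Neither gene of GABA breakdown differed between the genotypes by more than its spread. Abat (ENSMUSG00000057880, chromosome 16, 8331292 to 8439432) held 8235, 8528, 8089 and 8700 normalized counts in cKO replicates 1 to 4, against 7908, 8085, 8654, 8637 and 8426 in WT replicates 1 to 5. Its means were 8388 ± 277 in cKO and 8342 ± 334 in WT (log2 fold change 0.04 ± 0.0424, SE, limma adjusted p = 0.731). The highest library was cKO replicate 4 and the lowest WT replicate 1, with the others of both groups between them.

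Aldh5a1 carries the next step of the same route. Aldh5a1 (ENSMUSG00000035936, chromosome 13, 25091561 to 25121644) held 4370, 4454, 4765 and 4598 normalized counts in cKO replicates 1 to 4, against 4574, 4633, 4512, 4860 and 4835 in WT replicates 1 to 5. cKO replicates 1 and 2 lay below every WT library and the other two lay inside the WT range. The means were 4547 ± 173 in cKO and 4683 ± 156 in WT (log2 fold change -0.04 ± 0.0458, SE, limma adjusted p = 0.771), and the estimate was 0.00015 without cKO replicate 2. A long non-coding gene that overlaps Aldh5a1, 9330162012Rik, held on average 1.96% as many counts, and the strand setting of the counting is unknown here.

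The GABA-B receptor genes had the lowest estimates of the 7, and Gabbr1 was the only member whose groups did not overlap. Gabbr1 (ENSMUSG00000024462, chromosome 17, 37356857 to 37385959) held 23841, 23967, 24539 and 24514 normalized counts in cKO replicates 1 to 4, against 26139, 25232, 25324, 26030 and 26055 in WT replicates 1 to 5. Every cKO library was below every WT library, and the WT male was the highest of the 9. The mean ± SD was 24215 ± 363 over the cKO libraries and 25756 ± 439 over the WT libraries, with a log2 fold change of -0.10 ± 0.0367 (SE, limma adjusted p = 0.315). Groups did not overlap in 6.29% of all genes tested (3.72% lower in cKO, 2.58% higher), in 9.85% of the 3199 genes of like abundance and in 14.3% of the 553 genes with a WT mean of at least 10000. Those 553 genes had a median log2 fold change of -0.05, so they were on the whole slightly lower in cKO under the authors' scaling. Gabbr1 lies high among them, as 0.704% of all genes tested had a higher WT mean.

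Gabbr2 had an estimate of the same size with more spread among the cKO animals. Gabbr2 (ENSMUSG00000039809, chromosome 4, 46662304 to 46991873) held 13581, 11817, 13164 and 12717 normalized counts in cKO replicates 1 to 4, against 13534, 13335, 13122, 13325 and 13714 in WT replicates 1 to 5. The cKO female and cKO replicate 4 were below every WT library, and cKO replicate 1 was above all but WT replicate 5. The means were 12820 ± 756 in cKO and 13406 ± 225 in WT (log2 fold change -0.11 ± 0.0424, SE, limma adjusted p = 0.334), and the estimate was -0.04 without cKO replicate 2 and -0.18 without WT replicate 1.

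Since the 2 receptor subunits assemble in a fixed pair, their ratio was also followed, as a description. Gabbr1 over Gabbr2 was 1.76, 2.03, 1.86 and 1.93 in cKO replicates 1 to 4, against 1.93, 1.89, 1.93, 1.95 and 1.90 in WT replicates 1 to 5. The mean ratio was 1.89 ± 0.114 in cKO and 1.92 ± 0.0251 in WT. Of the cKO libraries, replicates 1 and 3 stood below the narrow WT range, replicate 2 above it and replicate 4 inside it. The stretches around the starts of Gabbr1 (chr17:37045716-37046015, plus strand) and Gabbr2 (chr4:46991665-46991964, minus strand), given 5′ to 3′ on the gene's strand with matches to the same 6 motifs in capitals, are these:
Gabbr1: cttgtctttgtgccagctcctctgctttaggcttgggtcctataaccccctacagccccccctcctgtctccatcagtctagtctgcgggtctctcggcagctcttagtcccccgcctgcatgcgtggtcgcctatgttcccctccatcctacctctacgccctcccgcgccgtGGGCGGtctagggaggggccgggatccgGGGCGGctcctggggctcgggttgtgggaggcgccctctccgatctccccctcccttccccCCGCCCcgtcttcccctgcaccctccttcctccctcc
Gabbr2: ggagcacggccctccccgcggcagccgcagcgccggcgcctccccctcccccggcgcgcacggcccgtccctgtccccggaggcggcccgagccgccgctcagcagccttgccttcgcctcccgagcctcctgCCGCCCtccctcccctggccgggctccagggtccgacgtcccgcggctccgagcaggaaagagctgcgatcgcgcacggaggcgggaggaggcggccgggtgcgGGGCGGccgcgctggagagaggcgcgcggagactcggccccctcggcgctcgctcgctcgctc
Both held GC box matches and no match to the other motifs. Gabbr2 had 46 CpG dinucleotides, more than 98.4% of promoters, and Gabbr1 had 18. The Gabbr1 gene also makes receptor isoforms from an internal start, which whole-gene counts do not separate.

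**Figure D3:**
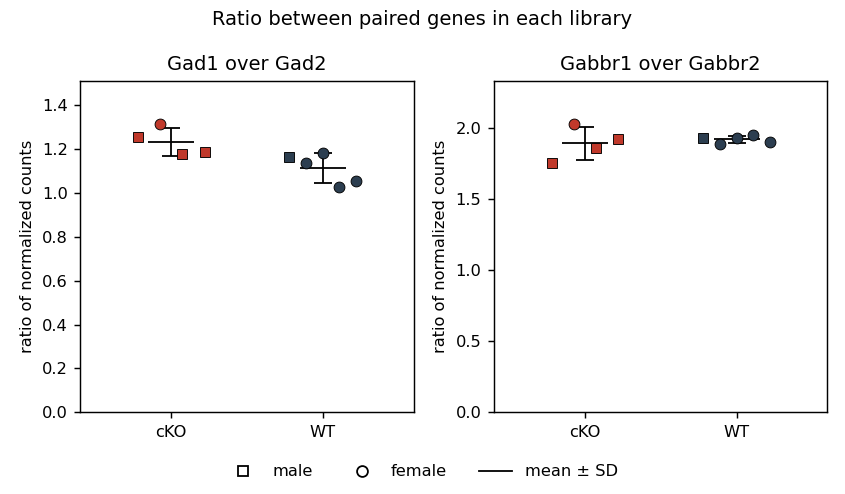
Ratio of normalized counts (y axis, from 0) of Gad1 over Gad2 and of Gabbr1 over Gabbr2 in each cKO and WT library, with squares for males, circles for females and group mean ± SD. The Gad1 over Gad2 ratio averages 1.23 in cKO and 1.11 in WT with a small overlap, and the receptor ratio spans 1.76 to 2.03 in cKO around the WT range of 1.89 to 1.95.

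Levels were compared between genes per kilobase of annotated exon, counting each exon base of a gene once. In cKO the order was Gabbr1 (3119 ± 46.8 normalized counts per kilobase, SD, n = 4), Gabbr2 (1917 ± 113), Gad2 (1097 ± 92.7), Abat (1083 ± 35.7), Gad1 (1037 ± 36.4), Slc32a1 (902 ± 70.4) and Aldh5a1 (805 ± 30.7). The WT order was the same, with Gabbr1 at 3317 ± 56.6 per kilobase (SD, n = 5), Gabbr2 at 2005 ± 33.7, Gad2 at 1105 ± 49.6, Abat at 1077 ± 43.1, Gad1 at 945 ± 49.99, Slc32a1 at 877 ± 52.2 and Aldh5a1 at 829 ± 27.7. By this length, the receptor genes stood apart from each other and from the rest in both groups. The ranges of Gad2 and Abat, of Abat and Gad1, and of Slc32a1 and Aldh5a1 overlapped. The ranges of Gad1 and Slc32a1 overlapped in WT and did not in cKO. The order in the middle, and in cKO the distance of Gabbr2 from the rest, depend on the length used. Per kilobase of the longest transcript, Gad1 came after Gabbr2 in both groups, followed by Abat and then Gad2. By that length Gabbr2 was at 2230 ± 131 and Gad1 at 2200 ± 77.1 in cKO, a gap smaller than either SD. In WT, Gabbr2 was at 2331 ± 39.2 and Gad1 at 2004 ± 106.

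The sexes were compared in the same model, since each genotype held both. By limma 0 of the 7 genes differed between females and males at an adjusted p under 0.05, beside 0.0528% of all genes, and at an unadjusted p under 0.05 there was 1, Slc32a1 (6.73% of all genes). edgeR and DESeq2 also called 0. Slc32a1 averaged 2388 ± 161 in the 5 females (SD) and 2604 ± 38.02 in males (SD, n = 4 libraries), in normalized counts, with a log2 difference, female minus male, of -0.15 ± 0.0555 (SE, limma adjusted p = 0.700). That difference was -0.0764 without cKO replicate 2 and -0.23 without WT replicate 1. The other 6 genes had log2 differences from -0.08 for Gabbr2 to 0.06 for Abat.

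Whether the genotype effect differs between the sexes was asked with an interaction term, which rests on a single cKO female and a single WT male. By limma 0 of the 7 passed, beside 0.00587% of all genes, and at an unadjusted p under 0.05 there was 1, Gad2 (7.90% of all genes), with edgeR and DESeq2 not run for this term. For Gad2 the 3 cKO males (6262, 6847 and 6912) were above the WT male (6204), and the cKO female (5754) was below the 4 WT females (6205 to 6877). The interaction was -0.29 ± 0.0972 on the log2 scale (SE, limma adjusted p = 0.570).

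**Figure D4:**
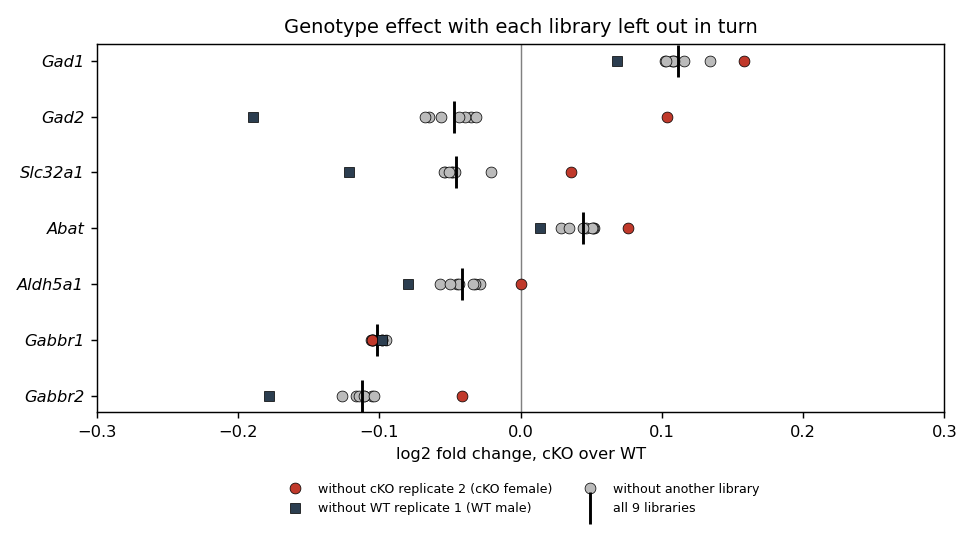
Log2 fold change, cKO over WT (x axis), of each GABA gene with all 9 libraries (vertical bar) and with each library left out in turn (points, with the fits without the cKO female in red and without the WT male in dark blue). Gabbr1 stays between -0.11 and -0.10, while Gad2 runs from -0.19 without the WT male to 0.10 without the cKO female.

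Of 18 enzymes next to the GABA route, a single one, Glul, passed by limma. Glul, which makes glutamine from ammonia and glutamate in astrocytes, fell to 21976 ± 1779 normalized counts in the 4 cKO libraries, against 28464 ± 1574 in the 5 WT libraries (mean ± SD), a log2 fold change of -0.29 ± 0.0520 (SE, limma adjusted p = 0.0338). By limma 1 of the 18 fell, 0 rose and 17 did not pass, where 0.346% of all genes passed. edgeR called 1 and DESeq2 called 2 (0.335% and 1.17% of all genes). At an unadjusted p under 0.05 by limma there were 7, beside 11.3% of all genes. The groups did not overlap in 5 of the 18, beside 6.29% of all genes. Estimates were below 0 for 12 of the 18 (median log2 fold change -0.04), beside 8715 of the 17036 genes tested and a median of -0.03 for genes of like abundance to the GABA genes. Adhfe1, whose product oxidises 4-hydroxybutyrate, a by-product of GABA, averaged 596 ± 75.8 in cKO and 479 ± 23.9 in WT (limma adjusted p = 0.161). Suclg2, a subunit of succinyl-CoA ligase, averaged 514 ± 62.8 in cKO and 443 ± 50.7 in WT (limma adjusted p = 0.247). Pdxk, the kinase that supplies the pyridoxal phosphate cofactor of the decarboxylases and the transaminase, averaged 2890 ± 145 in cKO and 3098 ± 50.4 in WT (limma adjusted p = 0.254).

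Among 4 GABA uptake transporters, limma, edgeR and DESeq2 each called 0, with 2 at an unadjusted p under 0.05 by limma (11.3% of all genes). The log2 fold change was 0.03 for Slc6a11, and it was 0.54 ± 0.195 for Slc6a13 and 0.87 ± 0.356 for Slc6a12 (SE). The astrocytic Slc6a11 averaged 8118 ± 437 normalized counts in cKO and 7749 ± 353 in WT. Slc6a13, known from the meninges, averaged 320 ± 68.7 in cKO and 211 ± 54.0 in WT (limma adjusted p = 0.313), and Slc6a12 averaged 62.8 ± 28.1 in cKO and 30.7 ± 10.03 in WT (limma adjusted p = 0.377). The 10 meningeal and fibroblast markers summed to 8157 to 10051 normalized counts in cKO libraries, against 5783 to 9698 in WT libraries (median log2 fold change 0.39, 9 of 10 above 0, 0 passing, none at 0 in all libraries). Of these 10 markers, 5 had an unadjusted p under 0.05 by limma, beside 11.3% of all genes. The part of the meningeal markers in the transporter values was not tested.

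Of 18 partners and effectors of the GABA-B receptor, 0 passed by limma, edgeR or DESeq2, and 2 had an unadjusted p under 0.05 by limma, a share near the 11.3% of all genes. Estimates were below 0 for 14 (median log2 fold change -0.07), beside medians of -0.03 for genes of like abundance to the GABA genes and -0.05 for the 553 most abundant. The groups did not overlap in 2 of the 18, beside 6.29% of all genes. That share was 9.85% for genes of like abundance to the GABA genes and 14.3% for the 553 most abundant. Gnao1, the abundant inhibitory G protein subunit of neurons, averaged 35025 ± 577 normalized counts over the cKO libraries and 37069 ± 703 over the WT libraries (mean ± SD), without overlap of the groups (log2 fold change -0.10 ± 0.0371, SE, limma adjusted p = 0.310). Kcnj6, a subunit of the potassium channel that the receptor opens, averaged 917 ± 143 in cKO and 1009 ± 55.9 in WT (limma adjusted p = 0.380). Gnai1, another inhibitory G protein subunit, averaged 7955 ± 364 in cKO and 8573 ± 174 in WT without overlap (limma adjusted p = 0.460), and Cacna1b, the N-type calcium channel subunit, 6304 ± 506 in cKO and 6343 ± 249.4 in WT (limma adjusted p = 0.554). The 4 Kctd genes of the list, auxiliary subunits of the receptor and their relative Kctd12b, did not go one way, with log2 fold changes of 0.08 for Kctd8, -0.07 for Kctd12, -0.14 for Kctd12b and -0.09 for Kctd16, none passing by limma. They were named after their values were seen.

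Interneuron markers were set beside Gad1, Gad2 and Slc32a1, because those 3 are made by the same cells. Of 24 markers, 0 passed by limma, edgeR or DESeq2. By limma 1, Calb2 (calretinin), had an unadjusted p under 0.05, beside 11.3% of all genes. Calb2 averaged 2641 ± 204 normalized counts in cKO and 2310 ± 182 in WT (limma adjusted p = 0.202). The summed level of the list ran from 39220 to 46720 in cKO libraries and from 40100 to 42764 in WT libraries, and its median log2 fold change was 0.02. With the mean of these markers as a covariate, the log2 fold change was 0.09 for Gad1, -0.09 for Gad2 and -0.07 for Slc32a1. Excitatory neuron markers had 0 of 12 passing by limma, edgeR or DESeq2 and 0 at an unadjusted p under 0.05 (median -0.04). Markers of neighbouring striatum and thalamus, 0 of 10 passing by each tool and 0 unadjusted, summed to 3572 to 5547 in cKO and 3623 to 5982 in WT libraries. Choroid plexus markers, 0 of 6 passing by each tool and 0 unadjusted, summed to 580.5 to 33210 in cKO and 601 to 43995 in WT libraries.

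**Figure D5:**
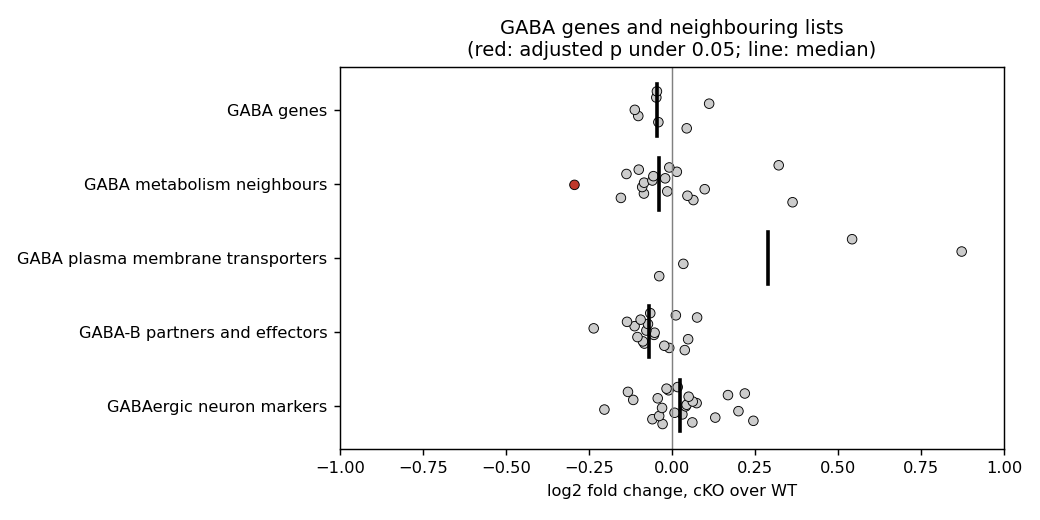
Log2 fold change, cKO over WT (x axis), of each tested gene of the GABA set and of 4 neighbouring lists, with the list median as a line and genes with a limma adjusted p under 0.05 in red. The single red point is Glul at -0.29, and the 7 GABA genes lie between -0.11 and 0.11.

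Markers of other cell types were read in the same fit. Over all genes tested, 0.346% passed by limma, 0.335% by edgeR and 1.17% by DESeq2. An unadjusted p under 0.05 by limma was reached by 11.3% of all genes. Of 12 astrocyte markers, 2 rose (S100b, log2 fold change 0.35, and Gfap, 0.29), 1 fell (Aqp4, the water channel of astrocyte endfeet, -0.35) and 9 did not pass by limma, with 5 at an unadjusted p under 0.05, 3 called by edgeR and 4 by DESeq2 (median 0.06). Of 8 endothelial markers 1 fell (Flt1, a VEGF receptor, -0.34) and 7 did not pass by limma, with 3 at an unadjusted p under 0.05, 1 called by edgeR and 2 by DESeq2 (median -0.06). Kdr, another VEGF receptor, had a log2 fold change of -0.25 without overlap of the groups (limma adjusted p = 0.0568). The groups did not overlap in 2 of the 8 endothelial markers, beside 6.29% of all genes. Of 6 oligodendrocyte precursor markers 0 passed by limma or edgeR and 2 by DESeq2, with 2 at an unadjusted p under 0.05 by limma (median -0.11). Of 8 microglia markers 0 passed by limma or edgeR and 1 by DESeq2, with 3 unadjusted by limma (median -0.10), and of 8 oligodendrocyte markers 0 passed by any of these tools, with 1 unadjusted (median 0.23).

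The genes whose pattern over the 9 libraries was nearest to each member were found from profiles scaled to mean 0 and SD 1, as the root mean square distance in SD units among 13912 genes with a mean of at least 50. Nearest to Gad1 were Gaa (0.24), Usp54 (0.24) and Dlx1as (0.29), the RNA antisense to the interneuron gene Dlx1. With the strand setting unknown, it is not known whether Dlx1as reads were kept apart from those of Dlx1. Nearest to Gad2 were Dennd4c (0.25), Slc35a3 (0.27) and Zfp790 (0.29), and to Slc32a1 they were Ankfn1 (0.24), Bnip5 (0.26) and Tmem130 (0.30). Abat had no gene as near, with Pantr2 at 0.33, Acadm at 0.37 and Cerkl at 0.41. Nearest to Aldh5a1 were Nceh1 (0.22), Lnpk (0.23) and Herc3 (0.23). For Gabbr1 they were Armh4 (0.18), Tmem229a (0.22) and Clgn (0.23), and for Gabbr2 they were Slc12a5, the neuronal potassium chloride cotransporter gene (0.24), Gm43268 (0.26) and Pom121 (0.28). Each list is the extreme of many genes over 9 libraries that share 2 genotypes, and is a description.

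Among the members themselves, the vesicular transporter followed Gad1 more closely than the second decarboxylase gene did. The distance of Slc32a1 from Gad1 was 0.76, with 3.84% of genes nearer to Gad1, and that of Gad2 from Gad1 was 1.14, with 27.7% of genes nearer. Gabbr1 and Gabbr2 were 0.89 apart, with 16.1% of genes nearer to Gabbr1, and Aldh5a1 was closer to Gabbr1 than Gabbr2 was, at 0.78 with 10.3% of genes nearer to Aldh5a1. Gad2 was closer to Aldh5a1, at 0.85, than to Slc32a1, at 0.92, or to Gad1. The farthest pair was Gad1 and Gabbr1 at 1.75.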

How the data were processed

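The submitters' processing notes name STAR 2.7.10b, cutadapt 4.4, FastQC 0.12.1, DESeq2 1.41.8 and the GRCm39 build. The sources used here do not give the read counter, annotation release or strand setting. The deposited table is a signal table: each value, to 2 decimals, is a gene's count over a size factor that the authors applied library by library, as the values themselves show. Dividing by that step gave whole reads, within 0.1 read, for 99.996 to 100.0% of the values above 0. The step is close to 1 in WT replicates 1 and 4 and in cKO replicate 1, so there the wholeness carries little information. These counts carry a counting error of at most 2.14% for the 7 genes.

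Values were put on the log2(normalized count + 1) scale and tested with limma-trend (R 4.3.3, limma 3.58.1), sex and genotype as terms, over 17036 genes with a mean of at least 10, adjusted by Benjamini-Hochberg. Fold changes are on that scale and come from the model, so they can differ from the ratio of the means. edgeR 4.0.16 and DESeq2 1.42.0 were run on the recovered reads. The fits were tested on simulated data. The chi-square per gene was 3.62 to 12.9 within groups, so no library was counted as a repeat. The labels give no litters, so p-values reflect only the spread among these samples. Exon lengths came from GENCODE M21 (GRCm38), by gene ID, and promoters from RefSeq. Gene coordinates are those of the deposited table. Named genes were the 7 members, Slc38a3, at most 4 genes of each list in order of p, and the 3 nearest profiles per member. A gene that this rule names in 1 list is not reported here. Prox1 and Neurod6, as tissue markers, and the Kctd genes were named outside this rule. The members and lists were chosen with earlier results of these data known. Alternatives were other pseudocounts, filters, scaling and tools, no sex term, each sex alone, marker covariates and each library left out. Python 3.11.15, pandas 2.3.3, numpy 2.4.6 and matplotlib 3.10.9 were also used.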

Additional observations from a re-analysis of the deposited data

Results flagged for a closer look

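Slc32a1 in cKO replicate 2, the only cKO female, was at 2228 normalized counts, apart from the other 3 cKO libraries at 2604 to 2649. The gap to the nearest of them was 0.894 of the whole cKO range, above Dixon's 95% critical value for 4 samples. It was the 1 value so marked among 18 group checks of the 7 genes and the 2 ratios, and chance marks about 1 in 20 such groups.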

How the results depend on the processing

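The number of GABA genes called was 0 under the 22 alternatives for genotype, the 17 for sex and the 5 for the interaction. The fits with males alone, females alone, without cKO replicate 2 or without WT replicate 1 set the genotype effect against a single animal and called few genes anywhere, so their 0 says nothing about stability. The number of all genes called between cKO and WT, 59, was 199 with DESeq2, 216 with no sex term, 3 with males alone, 11 with females alone, 9 with the meningeal marker mean as a covariate, and 10 to 65 with a library left out in turn (10 without cKO replicate 2, 28 without cKO replicate 1, and 21, 29 and 30 without WT replicates 1, 2 and 5). Between the sexes it was 9, 24 with DESeq2, and 9 to 16 with a library left out (16 without cKO replicate 4). For genotype, Gad1, Abat, Gabbr1 and Gabbr2 kept their sign under every alternative run. With males alone the sign turned for Gad2 (0.10), Slc32a1 (0.0355) and Aldh5a1 (0.00015), and for Slc32a1 without the sex term (0.0382). With a library left out the log2 fold change ran from -0.19 to 0.10 for Gad2, -0.12 to 0.0355 for Slc32a1 and -0.0800 to 0.00015 for Aldh5a1. For sex, it ran from -0.0896 to 0.00029 for Gad1, -0.21 to 0.0808 for Gad2 and -0.0387 to 0.0415 for Aldh5a1, and TMM scaling gave -0.0015 for Aldh5a1. The highs came without cKO replicate 2 and the lows without WT replicate 1. These fits set the genotype effect within 1 sex and the sex effect within 1 genotype. Gad1 was at 0.06 and Slc32a1 at -0.12 with the meningeal covariate. The cause of these shifts was not tested. The levels per kilobase with the longest transcript were an alternative chosen after seeing the data. No paired analysis was possible because the labels give no number shared between the groups.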
